A study of Sus scrofa with 3 samples.

Results

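In retroperitoneal fat of castrated miniature pigs given testosterone, 65 genes stood at least 5-fold above both other groups, and most of them encode proteins of striated muscle. The genes were chosen by their values, as genes classed as mRNA with at least 10 UQRPKM in the testosterone-treated library and at least 5 times the level of each of the other libraries. UQRPKM is the number of reads on a gene per length of the gene, scaled by the upper quartile of reads per gene in the library. The rule took 65 of 22826 mRNA genes, in a data set of 34570 genes of all types. Among the 11728 mRNA genes with at least 10 UQRPKM in the treated library the members made up 0.554%. The same rule with another library as the high one took 16 of 11752 genes for the intact library, or 0.136%, and 130 of 11767 for the castrated library, or 1.1%. Since the ratios to the treated library chose the members, these ratios are a description and were not tested.

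Visceral adipose tissue (VAT) was measured by RNA-Seq in male Wuzhishan miniature pigs, a small Chinese breed, that were 6 to 7 months old when obtained and then received a diet rich in fat and cholesterol for 12 weeks. IM pigs were intact and had skin incisions only, CM pigs were castrated, and CMT pigs were castrated and injected intramuscularly each week with 10 mg/kg testosterone propionate in corn oil. An injection of corn oil alone is not described for IM or CM, so hormone, vehicle and injection cannot be told apart. Each group was 1 library of RNA pooled in equal amounts over several pigs, 4 by the methods and 4 to 6 by the sample labels, so replicates are lacking and no p-value is given. Where 3 values follow each other without the names of the libraries, they are for IM, CM and CMT in that order.

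Skeletal muscle fibres contract when troponin, a calcium sensor on the actin filament, lets the myosin heads pull. Slow (type I) and fast (type II) fibres use different genes for myosin, troponin, the calcium pump and the calcium store. The heart ventricle shares several slow isoforms with slow fibres, whereas some atrial and cardiac isoforms are largely restricted to the adult heart. White fat cells make little of these proteins, while the smooth muscle of blood vessels has its own actin and myosin genes.

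Whole reads could be recovered behind every value, and reads on mRNA genes came to between 13449107 and 14844063 per library. The fat cell genes ADIPOQ, PLIN1, LIPE and CIDEC were at 8438 UQRPKM or more in each library, and the summed level of 10 fat cell genes was 113260 UQRPKM in CMT, against 143979 in IM and 135773 in CM. Marker lists of other tissues stood apart in some libraries. The summed level of 9 hepatocyte genes was 1737 UQRPKM in CMT, against 2557 in IM and 9263 in CM. Nearly all of it in IM and CMT was APOA1, at 2539, 2339 and 1714 UQRPKM. The other genes of this list were highest in CM, such as ALB at 2.61, 2910 and 4.00 UQRPKM and APOC3 at 0, 1645 and 2.26. The summed level of 6 skin epithelium genes was 180, 19.9 and 18.3 UQRPKM. No member is in a list for another cell type. In pooled bulk RNA, more cells of a type and more RNA per cell cannot be told apart.

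The members summed to 419, 385 and 11635 UQRPKM, from 1091, 881 and 24611 reads. Even in CMT this was 0.193% of the level of all mRNA genes, against 0.00674% in IM and 0.00627% in CM. The 38 members in a muscle list held most of it, with 353, 302 and 10577 UQRPKM in IM, CM and CMT. The other 27 members summed to 66.0, 82.6 and 1058 UQRPKM. ACTA1 alone was 30.8% of the members' level in CMT. By list, 8 members belong to slow fibres, 10 to fast fibres, 1 to the cardiac-type list, 10 to the sarcomere of both fibre types, 6 to muscle energy supply, 2 to excitation and calcium release and 1 to the myogenic regulators.

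The slow fibre members ranged from 48.8 to 597 UQRPKM in CMT, and none was above 12.3 UQRPKM in another library. TNNC1, the calcium-binding troponin subunit of slow and cardiac muscle, was at 6.75, 4.25 and 597 UQRPKM, from 5, 3 and 433 reads. The log2 ratio of CMT over CM was 7.13 with a 95% interval of 5.58 to 9.42. Intervals are exact Clopper-Pearson intervals from the reads and cover counting error only, since amplified reads are not independent molecules. TNNT1, the slow subunit that ties troponin to tropomyosin, was at 371 UQRPKM in CMT, against 3.36 in IM and 2.82 in CM. TNNI1, the slow inhibitory subunit, was at 12.3, 11.5 and 219 UQRPKM. All 3 slow troponin subunits were therefore present in CMT at more than 200 UQRPKM, and TNNI1 was the highest of them in IM and CM.

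Slow myosin was represented by its heavy chain and by both kinds of light chain. MYH7, the heavy chain of slow fibres and of the ventricle, was at 117 UQRPKM in CMT from 1025 reads, against 2.463 UQRPKM from 22 reads in IM and 1.997 from 17 in CM. MLC2V, the deposited name of the regulatory light chain MYL2, was at 1.77 UQRPKM in IM, at 0 in CM and at 297 in CMT. With CM set to a floor of 3 reads, MLC2V was at least 107-fold higher in CMT, and over the 2 reads of IM its log2 ratio was 7.39 with an interval of 5.53 to 10.44. MYL3, the essential light chain of slow and ventricular muscle, was at 3.63, 4.76 and 103 UQRPKM in IM, CM and CMT.

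The remaining slow members were lower. LOC100520244, whose current RefSeq symbol is MYL6B, a light chain of slow muscle that is also made outside muscle, was at 63.6 UQRPKM in CMT, against 6.56 in IM and 3.44 in CM. CSRP3, a Z-disc LIM protein of heart and slow fibres, was at 0, 2.28 and 48.8 UQRPKM, with only 22 reads in CMT. Another locus, LOC100155118, is matched to MYL6B by the authors' annotation and was at 7.20, 8.31 and 63.2 UQRPKM. If these loci are copies of a gene, reads may have been divided between them, so their separate levels are uncertain, and their likeness was not computed. LOC102164159, matched in the same way to MYOZ2, a Z-disc protein of slow fibres and heart, was at 1.75, 0 and 50.1 UQRPKM. It had 28 reads in CMT. LOC733663, whose current RefSeq symbol is MYOZ2, is in the slow list but was not a member, at 4.95, 8.66 and 11.0 UQRPKM. The level of MYOZ2 in CMT is therefore uncertain.

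The fast fibre members covered the same parts of the contractile machine and ranged from 13.6 to 904 UQRPKM in CMT. TNNC2, the fast calcium-binding troponin, was at 904 UQRPKM in CMT, against 19.5 in IM and 17.5 in CM. MYLPF, the fast regulatory light chain, was at 13.3, 11.8 and 645 UQRPKM. MYL1, the fast essential light chain, was at 0.786, 3.30 and 333 UQRPKM, from 1, 4 and 415 reads. These 3 genes were the highest of the fast list in CMT, and TNNC2 and MYLPF were also the highest members of it in IM and CM.

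Of the fast heavy chains, MYH1 of type IIx fibres was at 242 UQRPKM in CMT, against 3.18 in IM and 1.91 in CM. MYH2 of type IIa fibres was at 0.229 UQRPKM in IM from 1 read, at 0 in CM and at 14.3 in CMT from 61 reads. MYH2 made up 5.57% of the level of the pair in CMT, with a 95% interval of 4.26 to 7.15%. MYH1 and MYH2 are direct neighbours in the RefSeq gene order, and LOC100736982 lies 2 coding genes from MYH1, with MYH4 among them. LOC100736982, matched by the authors' annotation to MYH13, the heavy chain of eye muscles, was at 1.15, 0.121 and 13.3 UQRPKM from 10, 1 and 113 reads. The fast myosin genes are close copies, so reads may have been assigned to a wrong neighbour and the levels within this cluster are uncertain.

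Fast members outside the filaments handle calcium or hold the Z-disc. ATP2A1, the calcium pump of fast fibres, was at 236 UQRPKM in CMT, against 2.69 in IM and 2.42 in CM. CASQ1, the calcium store protein of skeletal muscle, was at 3.28, 6.45 and 60.6 UQRPKM. MYOZ1, a Z-disc protein of fast fibres, was at 0.465, 3.90 and 162 UQRPKM. For MYOZ1, IM rests on 1 read, and the log2 ratio of CMT over IM was 8.44 with an interval of 5.96 to 13.75. The lowest ratios of the fast members were those of MYLK2, the kinase of the skeletal regulatory light chain, and of LOC100519531, now named ACTN3, the actinin of fast Z-discs. MYLK2 was at 3.96, 3.42 and 20.7 UQRPKM, and LOC100519531 was at 2.49, 2.14 and 13.6 UQRPKM.

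**Figure D1:**
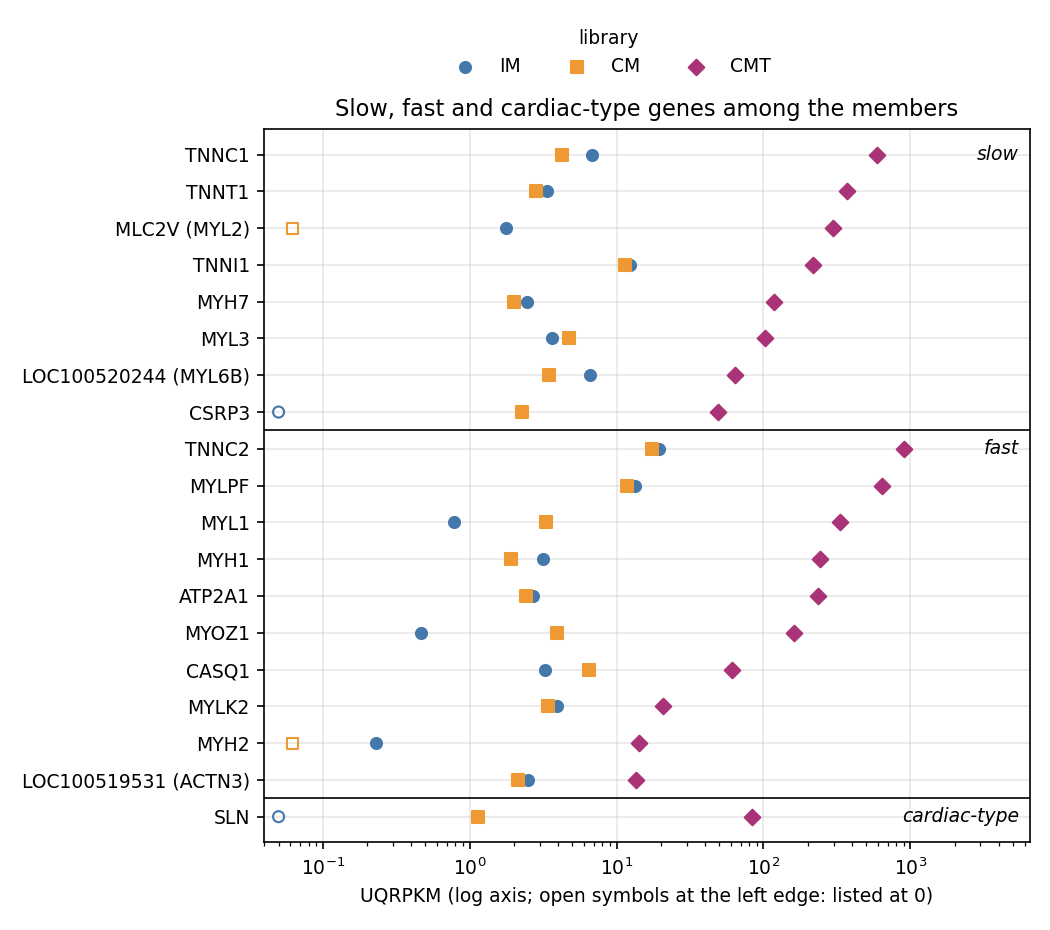
Levels in UQRPKM (log axis) of the 19 members in the slow, fast and cardiac-type lists in the IM, CM and CMT libraries, 1 pooled library each, with open symbols for genes listed at 0. IM and CM lie at 19.5 UQRPKM or less, while CMT lies between 13.6 and 904.

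Slow and fast isoforms can be set against each other within a library because UQRPKM is per length. The slow heavy chain MYH7 made up 31.4% of the summed level of MYH7, MYH1 and MYH2 in CMT (95% interval 29.2 to 33.6%), against 42.0% in IM (23.7 to 65.2%) and 51.2% in CM (25.5 to 81.1%). The fast heavy chain MYH4 was not found under that name, and LOC100736982 was left out of the sum. These shares therefore cover only the heavy chains named and not all of them. TNNC1 made up 25.7%, 19.5% and 39.8% of both troponin C genes, and MLC2V made up 11.8%, 0% and 31.5% of both regulatory light chains. In CMT the slow isoform was thus the smaller part of each of these groups per length. Recovered lengths were 5995 bases for MYH7, 1478 for MYH1 and 2929 for MYH2, short for heavy chain genes, so the recovered reads of MYH1 and MYH2 may be too low by a common factor. That would leave the shares of UQRPKM as they are but make their intervals too wide. The interval for troponin C in CMT was 36.3 to 43.4% and that for the regulatory light chain was 28.7 to 34.5%. Nearly all of these genes are members, so the shares are a description of values that the rule used, with no test between libraries. MYL3 was 82.2%, 59.1% and 23.6% of the essential light chains, from only 5 and 9 reads in IM and CM, with an interval in CMT of 19.9 to 27.6%.

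For calcium handling the slow and cardiac isoforms were not members. ATP2A2, the calcium pump of slow fibres and heart, which other cells also make, was at 302 UQRPKM in CMT, against 302 in IM and 273 in CM. The shares in this pair follow from the choice of ATP2A1 as a member for its level in CMT and are a description. The share of ATP2A2 in both pumps was 99.1%, 99.1% and 56.1%. CASQ2, the cardiac and slow calsequestrin, was at 19.0, 11.3 and 13.1 UQRPKM, and its share of both calsequestrins was 85.3%, 63.6% and 17.8%. The same holds for this pair, in which only CASQ1 is a member.

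**Figure D2:**
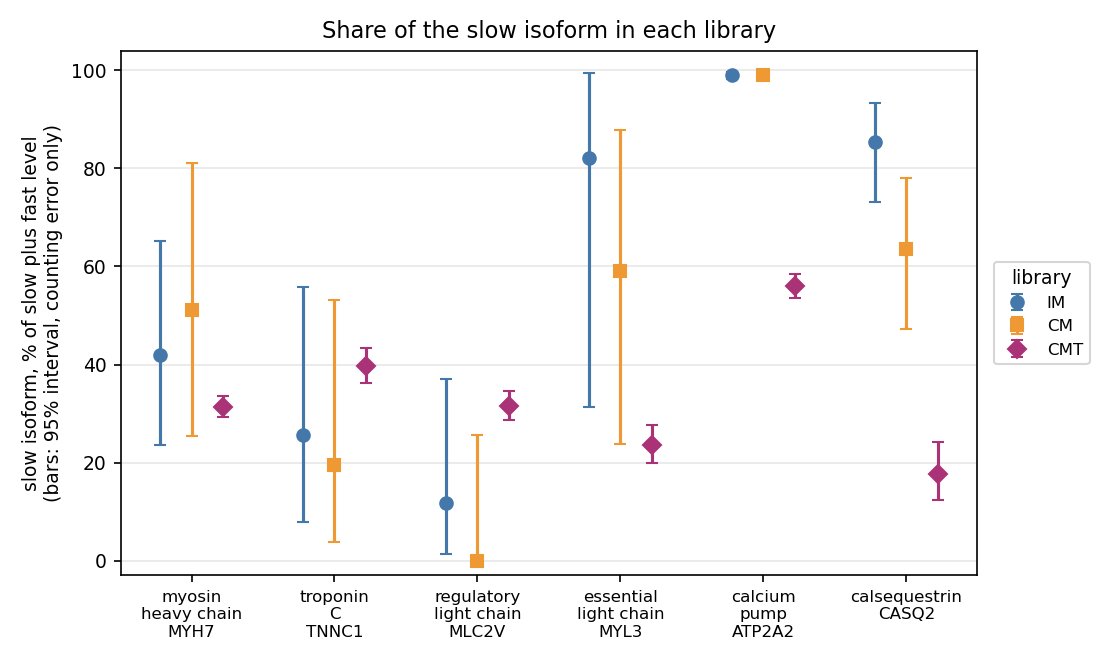
Share of the slow isoform in the level of the slow and fast isoforms (percent of UQRPKM) for 6 pairs of genes in each library, with 95% intervals of counting error. In CMT the slow share is 31.4% for the heavy chain, 39.8% for troponin C, 31.5% for the regulatory and 23.6% for the essential light chain, 56.1% for the calcium pump and 17.8% for calsequestrin, and the intervals of IM and CM are wide where few reads were counted.

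The cardiac-type list gave 1 member. SLN, sarcolipin, a small inhibitor of the calcium pump made in the atria and in skeletal muscle, was listed at 0 in IM, at 1.14 UQRPKM in CM from 2 reads and at 83.5 in CMT from 150 reads. The cardiac troponin I gene TNNI3 fell just short of the rule at 6.47, 5.94 and 30.5 UQRPKM, which is 4.72-fold over the higher of IM and CM. MYH6, the atrial heavy chain, was at 3.35, 1.17 and 13.9 UQRPKM, and ANKRD2, a stretch-responsive protein of slow muscle and heart, was at 3.15, 3.30 and 11.2 UQRPKM. Of the 11 cardiac-type genes at 1 UQRPKM or more in CM and CMT, 5 were higher in CMT by 1.5-fold or more and 0 lower. These 5 include SLN, whose direction the rule fixed. Of all mRNA genes compared, 9.53% were higher and 9.97% lower. In CMT over IM, 3 of 11 cardiac-type genes were higher and 2 lower, beside 8.81% and 11.9% of all genes. The levels of the other genes in the list were spread widely. PLN, a regulator of the calcium pump in heart and smooth muscle, was at 115, 126 and 146 UQRPKM, GJA5, a connexin of atria and of arteries, was at 321, 223 and 217, and TBX5, a transcription factor of heart and forelimb, was at 33.3, 35.6 and 30.1. The cardiac actin ACTC1 was at 2.46 UQRPKM in CMT, against 4.51 in IM and 1.18 in CM, and cardiac troponin T, TNNT2, was at 3.33, 2.91 and 2.26 UQRPKM. MYL7 was listed at 0 in CMT, and MYL4, NPPA and NKX2-5 were listed at 0 in all 3 libraries, from which no absence of expression can be read. Some reads of ACTC1 and ACTA1 may be shared, since the actins are near-identical in coding sequence. Reads may also have been divided between the heavy chains MYH6 and MYH7, with 110 and 1025 reads in CMT. Their likeness was not computed, so the level of MYH6 is uncertain.

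Among sarcomere genes of both fibre types the range in CMT was 13.5 to 3589 UQRPKM. ACTA1, the actin of adult skeletal muscle, was the highest member at 3589 UQRPKM from 9176 reads in CMT, against 49.8 UQRPKM in IM from 130 reads and 39.8 in CM from 99 reads. The log2 ratio of CMT over CM was 6.49 with an interval of 6.21 to 6.79, among the narrowest of the members. Sorted by level among the mRNA genes, ACTA1 ranked 7958, 8629 and 249 in IM, CM and CMT. DES, the intermediate filament desmin of all muscle types, was at 52.9, 33.0 and 459 UQRPKM and had the highest IM level of the sarcomere members. Smooth muscle of vessels makes desmin as well.

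The thick filament protein MYBPC1, the slow myosin-binding protein C, had the highest ratio over CM among the members of a muscle list above 0 there. It was at 0.483, 0.169 and 78.2 UQRPKM, from 3, 1 and 476 reads, with a log2 ratio over CM of 8.85 and an interval of 6.37 to 14.16. MYBPC2, the fast counterpart, was at 21.3, 16.0 and 87.8 UQRPKM and did not reach 5-fold over IM. MYBPC1 was listed with both fibre types but MYBPC2 with fast fibres, so the counts of slow genes leave MYBPC1 out. TCAP, the titin cap of the Z-disc, was at 11.0, 14.5 and 113 UQRPKM. KLHL41, which stabilises the thin filament, was at 1.37, 1.15 and 55.5 UQRPKM, and LDB3, a Z-disc scaffold, was at 3.45, 2.75 and 36.1 UQRPKM. The remaining sarcomere members were MYOT, LMOD2, MYOM2 and LMOD3, proteins of the Z-disc, the thin filament end and the M-band, at 13.5 to 23.0 UQRPKM in CMT and at 0.960 or less in IM and CM.

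Members of energy supply act in glycogen use, glycolysis, creatine phosphate and respiration. ENO3, the muscle enolase of glycolysis, was at 770 UQRPKM in CMT, against 50.3 in IM and 53.9 in CM. PYGM, the muscle glycogen phosphorylase, was at 75.4, 57.9 and 449 UQRPKM, the smallest ratio over IM of the class at 5.96-fold. PGAM2, the muscle phosphoglycerate mutase, was at 12.3, 2.59 and 235 UQRPKM. COX8H, a heart and muscle subunit of cytochrome c oxidase, was listed at 0 in IM and CM and at 90.2 UQRPKM in CMT, from 22 reads. CMT was at least 7.48-fold higher than IM and at least 7.13-fold higher than CM at the floor of 3 reads. CKMT2, the sarcomeric mitochondrial creatine kinase, was at 31.2 UQRPKM in CMT, and AMPD1, the AMP deaminase of muscle, was at 11.8.

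For excitation, STAC3, which couples the surface calcium channel to calcium release, was at 20.1 UQRPKM in CMT, against 1.86 in IM and 1.56 in CM. CACNA1S, the channel itself, was at 2.90, 2.93 and 15.2 UQRPKM and passed the rule narrowly at 5.20-fold. The myogenic factor MYF6, the regulator that persists in adult fibres, was at 0 in IM, 2.64 in CM and 14.4 UQRPKM in CMT, from 28 reads. MYOD1, MYOG, MYF5 and PAX7, which mark muscle precursors and forming fibres, were listed at 0 in all 3 libraries. The same held for CKM, MB and TNNT3 of adult muscle, so no absence of expression can be read from these zeros. No gene of the nerve junction list was a member.

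The medians of the classes, with genes at 0 set to the floor of 3 reads, describe values that the rule used. The median log2 ratio of CMT over CM was 5.15 in the slow class, 5.53 in the fast class, 5.52 in the sarcomere class, 3.90 in energy supply, 3.03 in the 2 excitation genes and 3.18 in the 27 members of no muscle list. Over IM the medians were 5.20, 5.78, 4.88, 3.53, 2.91 and 3.35 in the same order. Over all 65 members the medians were 3.96 over CM and 3.84 over IM. Precision varied widely, since 47 members had fewer than 10 reads in both IM and CM. For 37 members the lower end of the interval was itself at least 5-fold against both libraries, and 29 of these were in a muscle list.

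**Figure D3:**
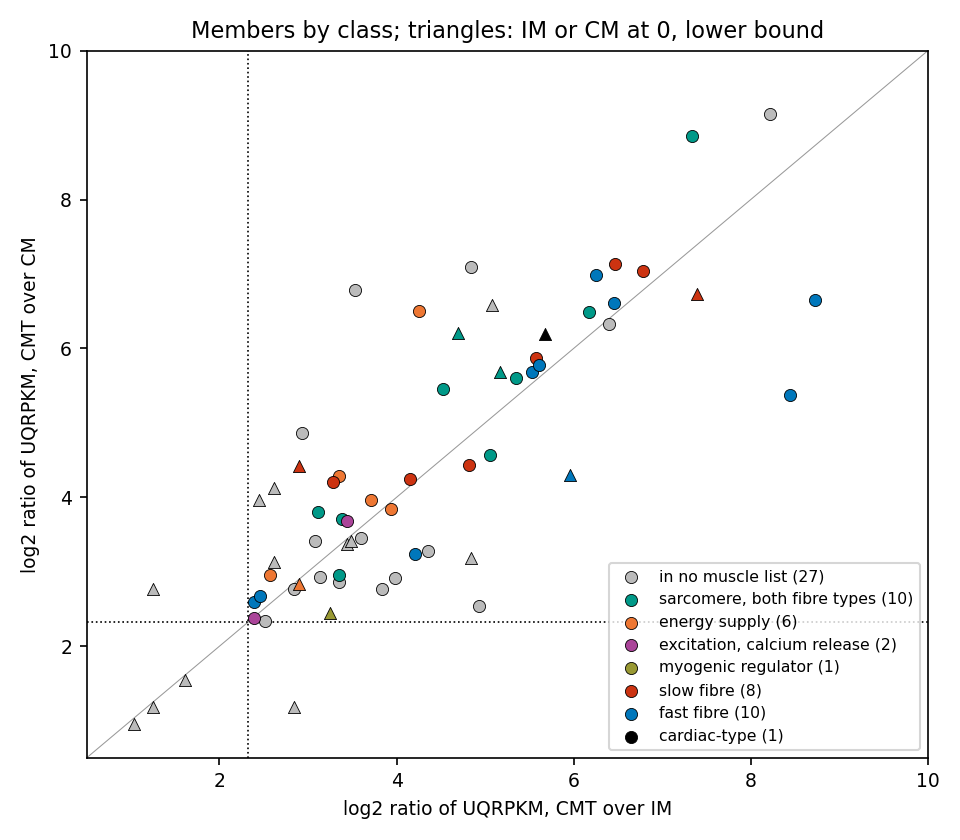
Log2 ratio of UQRPKM in CMT over CM against that in CMT over IM for the 65 members, coloured by gene list, with triangles for genes at 0 in IM or CM, placed at the lower bound from 3 reads. Dotted lines mark 5-fold; slow, fast and sarcomere genes reach the upper right while most genes of no muscle list lie nearer the lines, and bounds below the lines rest on few reads.

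Of the 27 members in no muscle list, 3 carry a muscle match in the authors' annotation, LOC100155118, LOC102164159 and LOC100736982 above. The highest of the other 24 was LOC100626667, matched to RBP5, a cellular retinol-binding protein, at 320 UQRPKM in CMT, against 26.5 in IM and 29.2 in CM. Its log2 ratio over CM was 3.46 with an interval of 2.81 to 4.18. LOC100737797, matched to EEF1A2, the elongation factor 1A form made in muscle and neurons, was at 2.28, 0.479 and 65.3 UQRPKM. DHRS7C, a reductase of the sarcoplasmic reticulum of striated muscle, was listed at 0 in IM and CM. It was at 32.8 UQRPKM in CMT, from 9 recovered reads, which may be too low by a common factor. LOC100737797 and DHRS7C are thus genes known from muscle that none of the lists held, a remark made after their values were seen.

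Several of the 24 encode secreted or matrix proteins. EPYC, epiphycan, a small proteoglycan of cartilage, was at 28.4 UQRPKM in CMT, against 3.71 in IM and 0.974 in CM. LOC100737939, matched to the fibrillar collagen chain COL11A1, was at 1.33, 2.79 and 27.2 UQRPKM. OTOR, otoraplin, a secreted protein of cartilage and the inner ear, was at 2.11, 4.43 and 33.4 UQRPKM. These 3 genes, each with a known place in cartilage, had 30 to 40 reads in CMT and 1 to 4 in each other library. They were set together after their values were seen and are not a list of their own.

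Further secreted proteins were LOC100512379, matched to SMOC2, a calcium-binding matrix protein, at 4.67, 5.28 and 26.8 UQRPKM, and the protease inhibitors SPINK9 and LOC100622572, now named CST6. SPINK9 was at 49.9 UQRPKM in CMT, against 4.89 in IM and 6.84 in CM, and LOC100622572 was at 0, 1.96 and 17.1. MMP3, stromelysin, a protease that degrades matrix, was listed at 0 in IM and CM and at 13.4 UQRPKM in CMT, from 32 reads, at least 10.9-fold over IM and 10.4-fold over CM. DUSP26, a phosphatase, was likewise at 0, 0 and 10.4 UQRPKM, from 33 reads in CMT.

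Members with a name for a general cell function were few and shallow. LOC102161128, matched to the receptor NRP2, was at 1.80, 9.44 and 55.1 UQRPKM, with 30 reads in CMT. ALKBH4, a demethylase that acts on actin among other targets, was at 2.15, 1.69 and 18.1 UQRPKM, and LOC100626512, now named GDPD1, a lipid phosphodiesterase, was at 2.94, 3.08 and 21.0. The loci matched to FHOD1, POLR3B, POMP and ATRX, namely LOC102158885, LOC102165721, LOC102161481 and LOC102158984, were between 11.5 and 19.4 UQRPKM in CMT on 7 to 18 reads. For LOC102161481 the interval of the log2 ratio over CM, -0.19 to 8.26, included 0, and for LOC102158984 that over IM did so at -0.12 to 8.33.

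The 6 members with no name at all included the largest ratio over CM among members above 0 in CM. LOC102161685 was at 0.181, 0.0951 and 54.0 UQRPKM, from 2, 1 and 584 reads. Its log2 ratio over CM rests on 1 read in CM and was 9.15 with an interval of 6.67 to 14.46. LOC100620900 was at 0.425, 0.446 and 36.0 UQRPKM, and LOC100737032 was at 0, 0.141 and 13.6 UQRPKM on 99 reads in CMT. These 3 loci had depth in CMT, whereas LOC100522375, LOC100516475 and LOC100524528 had 16, 7 and 6 reads there. RefSeq classes LOC100524528 as a pseudogene.

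**Figure D4:**
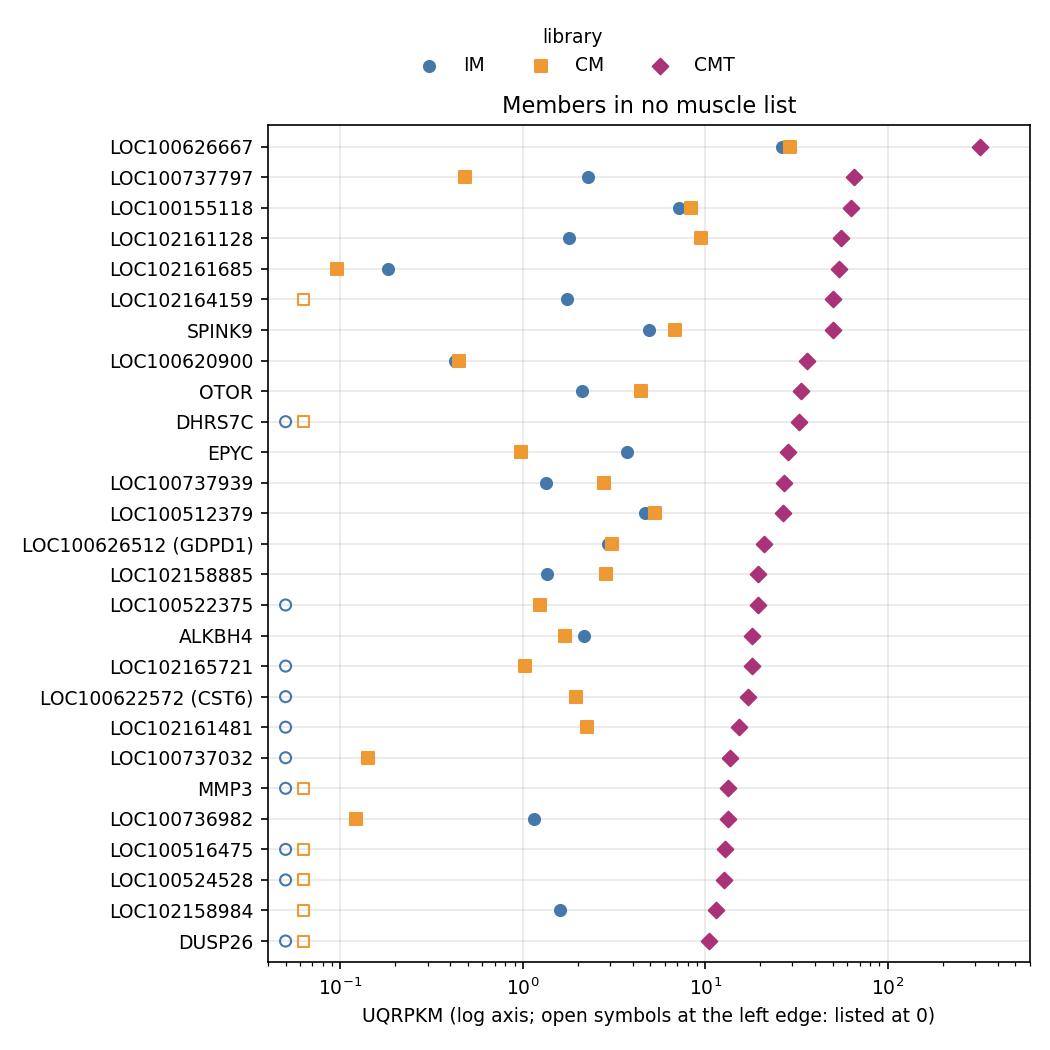
Levels in UQRPKM (log axis) of the 27 members in no muscle list in the IM, CM and CMT libraries, with open symbols for genes listed at 0. LOC100626667 stands alone at 320 UQRPKM in CMT, and the others lie between 10.4 and 65.3.

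The rule did not rank CM against IM. It did hold both to at most 1/5 of the level in CMT, so the rule used these values too. Only members with enough level in both libraries could be compared. Of the 34 members with at least 1 UQRPKM in both libraries, 5 were higher in CM by 1.5-fold or more, 5 were at least 1.5-fold lower and 24 lay within 1.5-fold. That is 29.4% past 1.5-fold, against 18.8% of the 14123 mRNA genes compared and 32% of the 6599 genes within the range of levels that the members spanned in IM and CM. The share among the members was near that of the 6599 genes. These genes were limited only by the highest levels of the members and not by CMT, so nothing is read from these shares. The median log2 ratio of CM over IM in the 34 members was -0.16.

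The interval of the log2 ratio of CM over IM did not include 0 for 5 of the 59 members with a read in either library, or 8.47%. The same held for 38.4% of the 16489 mRNA genes with a read, and for 24.3% of the 9892 with no more reads than the highest member in each library. Most members had few reads, which makes such intervals wide, so nothing is read from their share and the 5 are given as values. MYOZ1 was the only one higher in CM, with a log2 ratio of 3.07 and an interval of 0.17 to 8.54 on 1 and 8 reads. DES, PYGM, PGAM2 and LOC100736982 were lower in CM. For DES the log2 ratio was -0.68 with an interval of -1.05 to -0.33, for PYGM -0.38 with -0.63 to -0.13, for PGAM2 -2.25 with -4.68 to -0.43, and for LOC100736982 -3.25 with -8.69 to -0.44. With 1 library for each pool, differences between pigs and an effect of castration cannot be told apart.

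The levels of the members can also be set against each other between libraries. Across the 45 members above 0 in IM and CM, Pearson's correlation of the log2 level was 0.85, and for the 55 members above 0 in CM and CMT it was 0.64. These are correlations across genes, which are not independent replicates, between libraries that share the gene lengths used for scaling, and the median member had only 4 reads in CM. The rule itself ties the level in CMT to that in the others.

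The direction of the members was fixed by the rule, so the muscle lists are given with and without them. The 8 muscle lists held 169 mRNA genes, of which 38 were members. In CMT over CM, 109 of them were at 1 UQRPKM or more in both libraries, 50 were higher in CMT by 1.5-fold or more and 8 lower. Over all 14098 mRNA genes compared in this way, 9.53% were higher and 9.97% lower. In CMT over IM, 46 of 106 were higher and 10 lower, beside 8.81% and 11.9% of all genes. Without the members, 21 of 80 were higher and 8 lower in CMT over CM, or 26.2% higher, and 20 of 80 were higher and 10 lower in CMT over IM. The median log2 ratio without the members was 0.20 over CM and -0.00 over IM. In CM over IM, which leaves CMT out, 8 of 105 were higher and 19 lower, beside 8.38% and 10.4% of all genes, and without the members 7 of 81 were higher and 14 lower. The median log2 ratio of the lists was 0.47 in CMT over CM and -0.15 in CM over IM, and that of all mRNA genes was -0.02 and -0.06.

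By list, 10 of 10 fast genes and 7 of 12 slow genes compared were higher in CMT than in CM, but without the members this left 1 of 1 fast gene, MYBPC2, and 0 of 5 slow genes. Without the members the counts were 4 higher and 0 lower of 10 in the cardiac-type list, 7 and 5 of 21 in the sarcomere list, 7 and 1 of 18 in excitation, 1 and 2 of 14 in energy supply, 1 and 0 of 4 at the nerve junction and 0 and 0 of 7 among myogenic regulators.

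Of the 131 list genes that were not members, 29 were at 100 UQRPKM or more in every library. These are genes that fat, vessels or many cells make as well, such as TPM1 at 1251, 1156 and 1246 UQRPKM, TPM3 at 816, 808 and 769, and FABP3, a fatty acid carrier, at 1917, 8926 and 9268. Another 16 were under 10 UQRPKM in CMT with IM and CM at or below 1/5 of that value, but 12 of these were listed at 0 in IM and CM, and 10 had 5 reads or fewer in CMT, so no fold is given for them. The other 4 had reads in every library. Among these were the giant sarcomere protein titin, LOC100519519, at 0.122, 0.470 and 7.65 UQRPKM from 3, 11 and 184 reads, and the calcium release channel RYR1 at 0.567, 0.458 and 9.22 UQRPKM from 13, 10 and 207 reads. Both are long genes, with more reads in CMT than many members but a level per length under the limit. Nebulin, LOC100515976, classed as miscRNA and so outside the rule, was at 0.364, 0.535 and 9.44 UQRPKM. A further 20 list genes were listed at 0 in all 3 libraries, among them CKM, MB and TNNT3, which adult skeletal muscle makes in large amounts. Here too the zeros show no absence of expression.

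**Figure D5:**
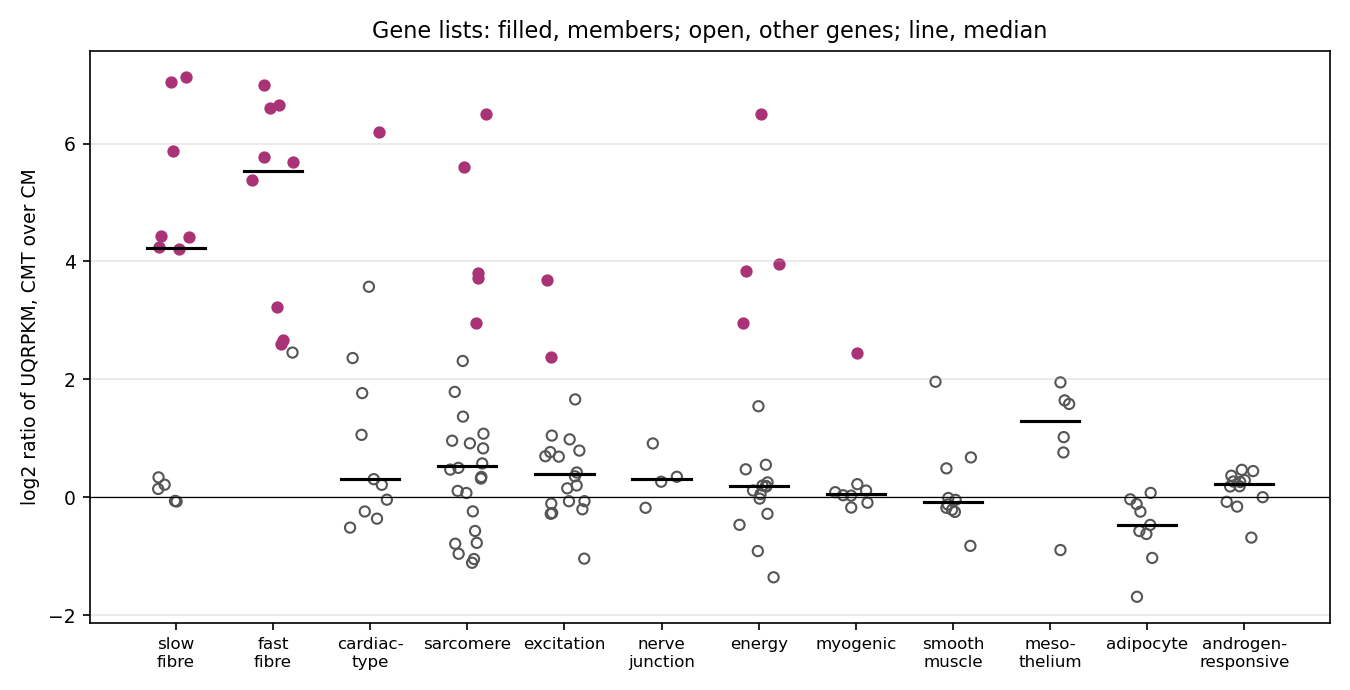
Log2 ratio of UQRPKM in CMT over CM for the genes of 8 muscle lists and 4 other lists with at least 1 UQRPKM in both libraries, with members filled, other genes open and a line at the median of each list. The fast genes, all members but 1, lie above 2, slow genes divide into members above 4 and others near 0, and the androgen-responsive genes lie near 0.

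At the edges of the rule, DUSP26, LOC102158984 and AMPD1 were just above 10 UQRPKM in CMT, at 10.4, 11.5 and 11.8, and LYPD6B, LOC102159454 and CAV3, a muscle caveolin, were just below at 9.50, 9.33 and 9.31. LOC100512379, CACNA1S and MYLK2 were just above 5-fold at 5.07, 5.20 and 5.22, and LGR5, LOC100519545 and TNNI3 were just below at 4.96, 4.86 and 4.72.

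Markers of other cells also differed between the libraries, and their part in the levels of the members was not tested. Of all mRNA genes compared, 9.53% were higher and 9.97% lower in CMT than in CM by 1.5-fold or more, and 8.81% and 11.9% against IM. Of 6 mesothelium genes compared, which mark the lining of the body cavity, 5 were higher in CMT than in CM and 1 lower. The lower gene was KRT18, at 28.7, 26.7 and 14.4 UQRPKM. The summed level of the mesothelium genes was 689 UQRPKM in CMT, against 153 in IM and 267 in CM. KRT8 was at 51.2, 102 and 307 UQRPKM, MSLN was at 6.47, 15.4 and 59.5, and LRRN4 was listed at 0 in every library. Among 10 smooth muscle genes compared, 2 were higher and 1 lower in CMT than in CM, and 1 was higher and 6 lower in CMT than in IM. The summed level of the smooth muscle genes was 7533, 5879 and 5609 UQRPKM, and the smooth muscle myosin MYH11 was listed at 0 in every library. Of 9 fat cell genes compared, 0 were higher and 3 lower in CMT than in CM, and 0 were higher and 1 lower in CMT than in IM.

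The remaining lists were measured in the same way. Summed levels were 371, 300 and 519 UQRPKM for B cell and lymph node genes, 374, 627 and 405 for adrenal genes, 143, 108 and 144 for Schwann cell and nerve genes, 4630, 4281 and 2385 for red blood cell genes, and under 1 in each library for kidney genes.

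Genes known to respond to androgen were compared because CMT pigs received testosterone. Of 12 such genes at 1 UQRPKM or more in CM and CMT, 0 were higher in CMT by 1.5-fold or more and 1 was lower, PMEPA1, at 189, 218 and 135 UQRPKM. Beside 9.53% higher and 9.97% lower of all genes, nothing is read from counts this small. FKBP5, a chaperone partner of steroid receptors, was at 301, 283 and 269 UQRPKM, and SGK1 was at 619, 427 and 383. The other genes of the list compared were higher in CMT than in CM, each by less than 1.5-fold. Examples were CAMKK2 at 187, 154 and 210 UQRPKM and ACSL3 at 62.5, 65.3 and 90.2. The median log2 ratio of CMT over CM in the list was 0.22, and none of its genes was a member.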

How the data were processed

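VAT RNA was extracted with TRIzol, pooled by group and sequenced single-end on an Ion Proton instrument, as 1 library per group. The deposited values are RPKM scaled by the upper quartile (UQRPKM), which the authors computed from quality-filtered reads aligned by MapSplice on the pig genome Sscrofa 10.2. The counting tool, annotation, handling of strand and of reads with several matches, and software versions are not given in the sources used here.

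Each value is a whole number of reads times a constant over the upper quartile and the gene length. With upper quartiles of 149, 142 and 146 for IM, CM and CMT and the shortest fitting length up to 120000 bases, whole reads were recovered for 100% of 20838 genes above 0, with a relative error of at most 7.65e-09. The smallest fitting numbers can be too low by a common factor. In a simulation of the 3 libraries, 91.8% of 1495 genes came out exact, 8.16% too low by a common factor and 0 otherwise wrong. The simulation was given the upper quartiles, and most of its genes had similar depth in all libraries. It therefore did not test the quartiles and says little of genes without reads in some libraries. Common factors can be more frequent there, and 20 members were at 0 in IM or CM. Reads on genes of all types came to 16611931, 15561124 and 15106608. Reads gave the intervals and the floor of 3 reads per library for genes at 0, and UQRPKM without a pseudocount gave all ratios. A call needed 1.5-fold and at least 1 UQRPKM in both libraries, after the thresholds of the study's methods without its test.

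The members and gene lists were chosen with earlier results of these data known. Of 280 list symbols 263 were found, through deposited symbols and RefSeq gene IDs (Sscrofa11.1 table, used for names and gene order only). Names of 12 other LOC members come from the authors' annotation of their gene lists. The rule for named genes took all members of the slow, fast and cardiac-type lists, the 10 highest of the other muscle lists, the 20 highest of no muscle list, the 3 genes on either side of each threshold and, as examples, list genes of at least 10 UQRPKM in CMT. The other members, and list genes below 10 UQRPKM, were named after their values were seen. Python 3.11.15, numpy 2.4.6, pandas 2.3.3, scipy 1.17.1 and matplotlib 3.10.9 were used. Alternatives were other thresholds, scalings, a pseudocount of 1 UQRPKM, reads in place of UQRPKM and an exact binomial test on reads that compares libraries and not conditions.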

Additional observations from a re-analysis of the deposited data

Results flagged for a closer look

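Genes not classed as mRNA lie outside the comparisons above, and 23 of them met the same thresholds, at least 10 UQRPKM in CMT and 5 times both other libraries, out of 1405 such genes with at least 10 UQRPKM in CMT. They were 17 miscRNA, 3 tRNA, 2 ncRNA and 1 miRNA precursor, and 11 were listed at 0 in IM and CM. The highest was TRNAM-CAU, a methionine tRNA gene, at 103 UQRPKM in CMT from 11 reads. LOC102162135 was at 83.8 UQRPKM in CMT, against 14.2 in IM and 8.91 in CM, and LOC102158683 was at 58.6 in CMT, against 5.47 and 1.43, on 42, 4 and 1 reads. The precursor MIR125B-1 reached 17.1 UQRPKM on 1 recovered read, a number that may be too low by a common factor.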

How the results depend on the processing

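With a threshold of 3-fold 102 genes qualified, with 10-fold 43, with a minimum of 1 UQRPKM 271, with a minimum of 50 UQRPKM 30, and with the lower interval end at 5-fold or more 37. Genes in no muscle list numbered 58, 14, 222, 6 and 8 under these settings, and 50 with genes of every type. The cardiac-type list gave 4 genes at 3-fold and 2 at a minimum of 1 UQRPKM, and the muscle lists other than slow, fast and cardiac-type gave 29 at a minimum of 1 UQRPKM and 9 at 50. Between CM and IM, 17 members were higher and 16 lower with no filter on low values, 1 was higher with at least 10 reads, and 1 was higher where the interval excludes 0. Counted in reads, which are not per length, MYH7 was 73.3% of MYH7, MYH1 and MYH2 together in IM and 63.7% in CMT. These shares move with any common factor missed in the reads of MYH1 and MYH2.

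In the 8 muscle lists with the members included, 81 genes were higher in CMT over CM with no filter and 14 lower, and 4 were lower at 2-fold. In CMT over IM the counts were 81 higher and 17 lower with no filter, and 4 lower at 2-fold. In CM over IM they were 4 higher and 7 lower at 2-fold, 26 and 29 with no filter, and 3 and 11 by the exact binomial test on reads with Benjamini-Hochberg adjustment. The causes of these moves were not tested, beyond the settings' own construction.

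Of 87 alternatives for the main results 54 stayed close to the reported value and 33 are given above. Rescaling by the total or by a median of ratios shifted ratios by at most 0.0796 on the log2 scale and gave 66 members each. The slow and fast counts stayed within 1.5 times the reported ones under every alternative run. No paired analysis was possible because each group is 1 pooled library, and leaving out a replicate was not possible for the same reason. Depth limits the members with few reads most, since 5 had 10 reads or fewer in CMT.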
